A study of Mus musculus with 2 samples.

Results

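The distal Mirg cluster is the run of microRNA (miRNA) genes from Mir379 to Mir3072 at the far end of the imprinted Dlk1-Dio3 region of mouse chromosome 12. Its members were found by a rule on position alone, as all counted miRNA genes that GENCODE M21 (mm10) starts on the plus strand within a fixed window of chromosome 12. The window held 39 of the 2202 genes counted, spread over 38901 bases (chr12:109709060-109747960). The counts come from small RNAs under 30 nt from hippocampus of B6CASTF1/J females at 2 months of age, F1 hybrids of a C57BL/6 and a castaneus-derived strain. There is 1 group, with no treatment and no further allele named, and it holds 2 libraries, biological replicates 1 and 2, from separate tissue records under 1 donor record. The labels say "layer of hippocampus" without naming the layer, and they leave unsaid whether 2 animals were used. Differences between the libraries may therefore be partly technical.

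Dlk1-Dio3 miRNAs are made from the maternal chromosome, where they are thought to be cut from 1 long non-coding transcript that runs through Meg3, Rian and Mirg. Each hairpin gives up to 2 mature arms (5p and 3p), and bases 2 to 8 of an arm, the seed, choose the messenger RNAs it represses. In neurons the cluster is known to be induced by activity through Mef2, and its best known product, miR-134, restrains dendritic spine growth through Limk1. The hairpins are thought to have arisen by repeated duplication of an ancestral sequence, so many of the mature arms resemble each other. F1 names conventionally list the mother's strain first, but the direction of the cross is not stated in the labels and the counts do not separate the alleles.

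Mature sequences from RefSeq (build GRCm38.p6, plus strand) were matched for 38 of the 39 members, with both arms for 33 and 1 arm for 5. Those with 1 arm matched were Mir376c, Mir487b, Mir539, Mir485 and Mir453, and Gm27379 had no match. The deposited counts are per gene and do not separate the arms, so each sequence below stands for a product of its gene and carries no level of its own. The arms of the 5 most abundant genes are shown first, since these genes carry most of the cluster's counts. Sequences run 5′ to 3′ and capitals mark the seed.
miR-382-5p: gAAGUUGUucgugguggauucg
miR-382-3p: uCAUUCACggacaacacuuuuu
miR-487b-5p: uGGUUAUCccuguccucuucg
miR-411-5p: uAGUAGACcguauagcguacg
miR-411-3p: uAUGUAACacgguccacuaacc
miR-541-5p: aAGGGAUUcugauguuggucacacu
miR-541-3p: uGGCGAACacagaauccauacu
miR-379-5p: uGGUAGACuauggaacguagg
miR-379-3p: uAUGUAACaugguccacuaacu

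Among these, the 3p arms of miR-379 and miR-411 have the same seed, AUGUAAC. The 71 mature sequences matched for the cluster, which may lack some arms, carried 65 different seeds. Of these, 6 seeds occurred in 2 members each, which together involve 11 members. The remaining pairs, and the resembling arms of miR-300 and miR-381 and of miR-376, are shown because the counts of these genes are set side by side further on.
miR-1193-5p: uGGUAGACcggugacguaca
miR-758-5p: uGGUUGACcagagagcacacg
miR-1197-5p: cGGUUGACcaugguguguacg
miR-494-5p: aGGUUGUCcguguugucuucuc
miR-410-5p: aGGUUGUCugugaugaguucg
miR-453: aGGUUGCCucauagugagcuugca
miR-496a-5p: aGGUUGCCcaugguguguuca
miR-376b-5p: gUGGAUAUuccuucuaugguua
miR-376c-5p: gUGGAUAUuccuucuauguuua
miR-376b-3p: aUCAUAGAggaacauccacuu
miR-376a-3p: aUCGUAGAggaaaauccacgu
miR-300-3p: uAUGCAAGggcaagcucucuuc
miR-381-3p: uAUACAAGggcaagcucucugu
The 5p arms of miR-376b and miR-376c share a stretch of 18 bases, and the 3p arms of miR-300 and miR-381 share 16 bases while their seeds differ.

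The likeness extends beyond the seeds. The letters GGUUGAC, searched on the mature strand and chosen after the sequences were seen, occurred in 5 of the 71 mature sequences of the cluster (7.04%) and in 0 of the 1608 other mouse mature sequences in the RefSeq table. The letters ACACGG occurred in 5 of 71 (7.04%) and in 2 of 1608 (0.124%). Other letters searched were less particular to the cluster. ACAUGG occurred in 5 of 71 (7.04%) and in 19 of 1608 (1.18%). GGUUG occurred in 12 of 71 (16.9%) and in 40 of 1608 (2.49%), and AUGGU in 9 of 71 (12.7%) and in 47 of 1608 (2.92%). The members are related sequences, so these matches are not independent of each other. The arms with GGUUGAC or ACACGG are shown with these letters in capitals. First come the 5 with GGUUGAC and then 4 with ACACGG, which miR-154-3p holds as well.
miR-380-5p, GGUUGAC: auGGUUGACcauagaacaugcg
miR-1197-5p, GGUUGAC: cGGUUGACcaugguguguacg
miR-758-5p, GGUUGAC: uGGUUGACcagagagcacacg
miR-134-5p, GGUUGAC: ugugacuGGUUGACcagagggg
miR-154-3p, GGUUGAC: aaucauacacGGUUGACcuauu
miR-411-3p, ACACGG: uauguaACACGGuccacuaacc
miR-323-3p, ACACGG: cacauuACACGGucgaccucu
miR-494-3p, ACACGG: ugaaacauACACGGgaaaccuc
miR-485-3p, ACACGG: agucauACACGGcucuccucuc
The position of GGUUGAC differed between the arms: it fills the seed of miR-758-5p and miR-1197-5p, starts on the last base of the seed in miR-134-5p and lies past the seed in miR-154-3p.

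The libraries held 4517648 (replicate 1) and 5979247 (replicate 2) sense counts on miRNA genes, and levels are given as counts per 1000000 of these (CPM). Where a gene had 0 counts, its level may still reach 0.664 CPM (replicate 1) or 0.502 CPM (replicate 2), the worth of 3 counts. Such floors and all intervals cover counting error only, since PCR copies are not separate molecules. Multimapping reads, 45.9% and 48.4% of the total, were assigned to no gene. Marker miRNAs of neurons made up 4.92% and 5.38% of counts over 13 genes, all of them seen, against 0.0448% and 0.0426% for 8 miRNAs of other organs, of which Mir1a-1, Mir133a-1 and Mir133a-2 were at 0. Listed genes with numbered copies, among them these at 0 and most of the neuron markers, may lose shared reads as multimapping. A count of 0 there does not show absence, and the percentages of the lists are not strictly comparable. Endothelial and mural miRNAs held 1.92% and 2.23% over 3 genes, and astrocyte-associated ones 1.61% and 1.78% over 4. Oligodendrocyte miRNAs held 0.653% and 0.698% over 3 genes, and those of microglia and leukocytes 0.176% and 0.206% over 5. Erythroid miRNAs held 0.00954% and 0.0142% over 3 genes. The 8 miRNAs listed for regions outside hippocampus, mostly of epithelial and sensory cells, differed between the replicates, at 0.0632% and 0.0206%. The part of this difference in the results below was not tested. In such tissue, fewer cells of a type and less RNA per cell cannot be told apart.

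Summed over its genes, the cluster made up 4.68% of replicate 1's miRNA counts (Wilson 95% limits 4.66 and 4.70) and 4.92% of replicate 2's (4.90 and 4.94), a mean of 4.80% ± 0.169 (SD, n = 2). At least 10 counts in both libraries were found for 35 members. Their median level of 330.1 CPM lay above the 85.3 CPM of all 420 genes that met the same minimum. Multimapping reads are missing from these levels and shares, so genes with copies anywhere may stand too low. The effect on the cluster's standing was not tested. Levels spread over a 1689-fold range, from 8073 CPM for Mir382 down to 4.78 CPM for Mir544. Of the 39 members, 11 reached 1000 CPM or more, 17 lay from 100 CPM to below 1000 CPM, 5 from 10 CPM to below 100 CPM and 3 below 10 CPM with a count, and 3 had no count.

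Counts were concentrated in a few members, as the plot of levels in genome order shows. The 5 most abundant genes held 63.9% of the cluster in replicate 1 and 68.3% in replicate 2 (66.1% ± 3.13), and the same 5 led both libraries. The 10 most abundant held 85.3% and 84.5%, and 9 genes were among the highest 10 in both libraries. Across the 35 genes the levels of the libraries had a Spearman correlation of 0.98, given as a description of points that share the library and the region.

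**Figure D1:**
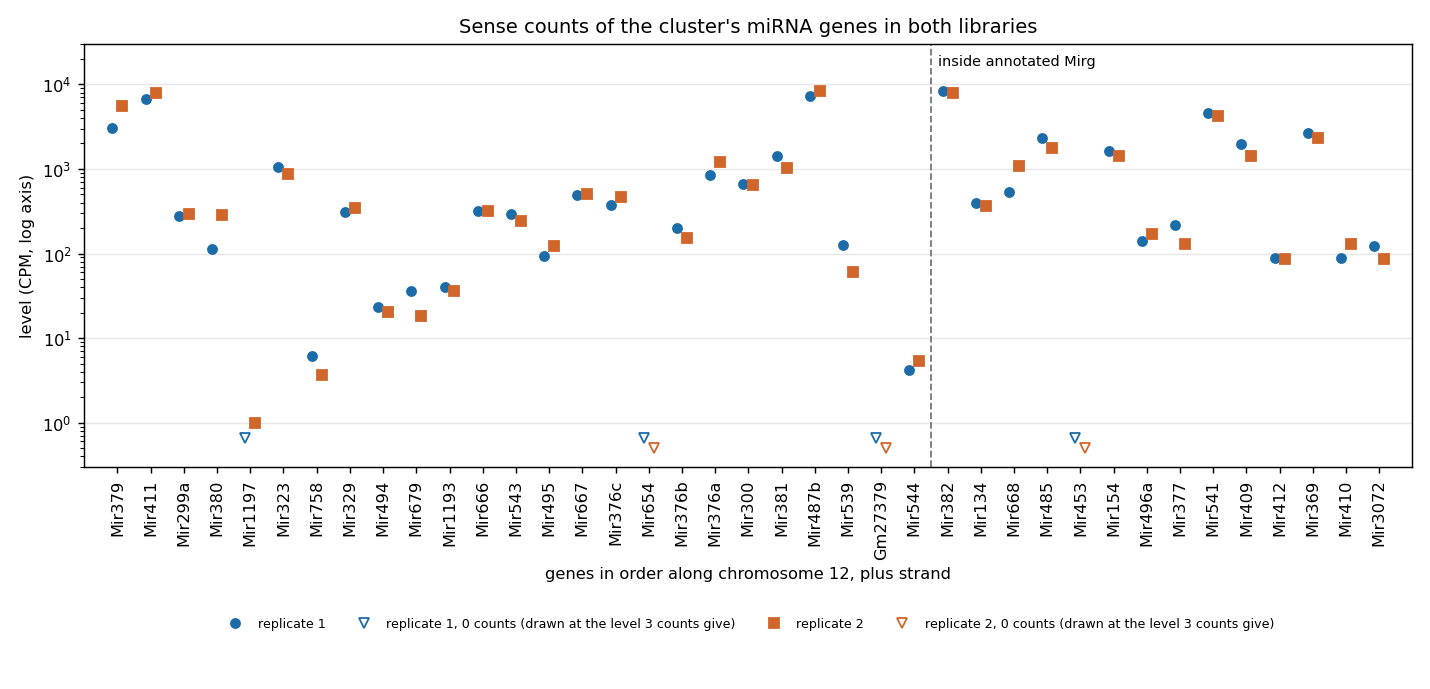
Level of each of the 39 member genes (CPM, log axis) in replicate 1 (circles) and replicate 2 (squares), in genome order, with open triangles at the level 3 counts give where the count was 0; the dashed line marks where the annotated Mirg gene begins. Levels reach from Mir382 at 8073 CPM to genes with no count, and neighbouring genes often differ widely.

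Mir382 (ENSMUSG00000065428.4, chr12:109733771-109733846) was the most abundant member, with 37564 and 46826 counts in replicates 1 and 2. Its level was 8315 and 7831 CPM, 8073 ± 342 CPM (SD, n = 2), which ranked 28 among all genes. Mir487b (chr12:109727333-109727414) followed with 7295 and 8287 CPM, and Mir411 (chr12:109710175-109710256) with 6640.2 and 7818 CPM. Neighbours in this order lay closer together than the SD of either gene (701 CPM for Mir487b and 833 CPM for Mir411, against 342 CPM for Mir382), and Mir487b rather than Mir382 led in replicate 2. Together they held 47.6% and 48.7% of the cluster.

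Mir541 (chr12:109742409-109742498) stood at 4614 and 4189 CPM, and Mir379, the first gene of the cluster (chr12:109709060-109709125), at 3042 and 5483 CPM. Mir379 was thus below Mir541 in replicate 1 and above it in replicate 2, and its SD of 1726 CPM was the highest among the members. Next came Mir369 with 2694 and 2338 CPM (12171 and 13980 counts) and Mir485 with 2307 and 1749 CPM (10420 and 10458 counts). Mir409 had 1976 and 1413 CPM (8926 and 8450 counts), Mir154 1624 and 1404 CPM (7337 and 8395 counts), and Mir381 1406 and 1035 CPM (6353 and 6187 counts). The CPM of all 5 was lower in replicate 2. Mir485 gives miR-485, known to act at synapses through the vesicle protein Sv2a, and Mir369 gives miR-369-3p, which with products of Mir496a and Mir543 is known to repress N-cadherin during cortical neurogenesis.

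The gene of miR-134 stood in the middle of the cluster's levels. Mir134 (chr12:109734139-109734209) had 1770 and 2161 counts, 391.8 and 361.4 CPM, and ranked 17 of the 39. Mir329, which is also tied to activity-dependent dendrite growth, stood at 313.4 and 346.7 CPM. Mir495 stood at 94.1 and 122.6 CPM, Mir543 at 294.2 and 242.8 CPM, Mir377 at 219.1 and 130.1 CPM and Mir410 at 87.4 and 128.1 CPM. The libraries differed most for Mir377, by 1.68-fold, and least for Mir134.

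Low and absent members were found as well. Mir654 and Mir453, which lie between well counted neighbours, and Gm27379 had 0 counts in both libraries. Mir1197 had 0 counts in replicate 1 and 6 in replicate 2. Mir758 had 28 and 22 counts and Mir544 19 and 32, so that no difference between the libraries was detectable at this depth. Mir494 (23.0 and 20.6 CPM), Mir679 (36.1 and 18.1 CPM) and Mir1193 (39.8 and 36.3 CPM), which lie next to each other, were also low.

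Reads that fit several places were left out, so genes with a near copy may be undercounted. A stretch of 20 or more identical bases with another miRNA hairpin was found for 5 members, in each case with another gene of the cluster. Mir376b and Mir376c share 31 bases, Mir411 and Mir758 share 21, and Mir487b shares 20 with Mir376b. The counts of these genes, among them the second and the third most abundant members, are therefore marked as uncertain. The share of the cluster was 3.24% ± 0.0132 without them. The rule takes whole hairpins, and no pair of the matched mature arms shares 20 bases. The longest stretch shared by such arms was 18 bases, in miR-376c-5p and miR-376b-5p. How many mature reads of these genes were left out was not tested. Copies outside the annotated miRNA genes were not looked for.

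Neighbouring genes of the cluster often differed widely in level, although some low genes, such as Mir494, Mir679 and Mir1193, lie in a run. Over the 39 members the Spearman correlation of mean CPM with start position was 0.07, a description of genes that share their libraries. Among 30 pairs of neighbouring genes that both met the count minimum, the median difference in level was 5.19-fold, and 11 pairs differed 10-fold or more. Between Mir409 at 1695 CPM and Mir369 at 2516 CPM lies Mir412, 52 bases after the first and 49 bases before the second, at 87.6 CPM. That is 19.3-fold and 28.7-fold below its neighbours. Mir758 at 4.94 CPM lies 216 bases after Mir323 at 958.4 CPM, a 194.1-fold difference, although Mir758 is among the uncertain genes.

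The cluster was also divided into 4 consecutive stretches of 12000 bases. The first, Mir379 to Mir380, held 21.5% of the cluster's counts in replicate 1 and 28.2% in replicate 2 from 4 genes. The stretch from Mir1197 to Mir376a held 8.77% and 8.75% from 15 genes, of which Mir376a alone had a mean above 1000 CPM. Mir300 to Mir453 held 45.0% and 42.8% from 11 genes, with Mir382 and Mir487b, and Mir154 to Mir3072 held 24.7% and 20.2% from 9 genes. The first stretch thus held more and the last less of the cluster in replicate 2 than in replicate 1.

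**Figure D2:**
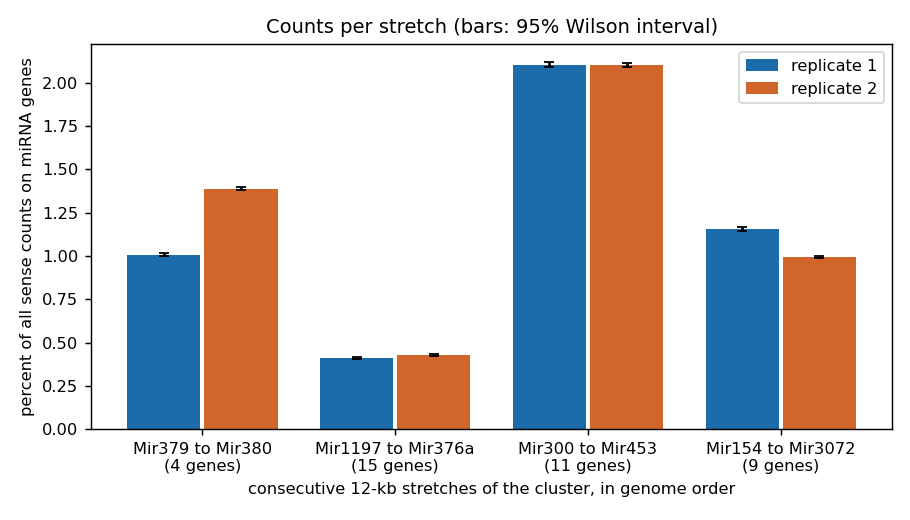
Percent of all sense counts on miRNA genes held by each of 4 consecutive 12000-base stretches of the cluster, in replicate 1 and replicate 2 (error bars, 95% Wilson interval of the counts). The first stretch is at 1.01% and 1.39%, the third at 2.10% and 2.11%, and the last at 1.16% and 0.995%.

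The annotated Mirg gene (chr12:109729764-109749460) covers the distal 14 members, and the other 25 lie before its annotated start. Of the 14, 4 hairpins lie wholly in a Mirg exon (Mir134, Mir485, Mir377 and Mir410), 5 cross an exon boundary (Mir382, Mir668, Mir412, Mir369 and Mir3072) and 5 lie in introns (Mir453, Mir154, Mir496a, Mir541 and Mir409). The exonic hairpins held 6.42% and 4.82% of the cluster's counts, those across a boundary 25.1% and 23.2%, and the intronic ones 17.9% and 14.6%. All members inside Mirg together held 49.4% of the cluster in replicate 1 and 42.6% in replicate 2. The 14 genes thus held nearly as many counts as the other 25 in replicate 1 and fewer in replicate 2.

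The design has no second condition, so the comparison it allows is between the replicates. Each gene with at least 10 counts in both libraries was set against all other miRNA counts in a Fisher's exact test (two-sided), with Benjamini-Hochberg adjustment over all 420 genes and a threshold of 0.05. This test compares the reads of these libraries, not any conditions, and covers counting error only. Each log2 ratio divides replicate 2 by replicate 1 after adding 0.5 CPM to both, with the 95% exact binomial interval of the counts.

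Of the 35 members tested, 26 passed the threshold, with 11 higher and 15 lower in replicate 2. That is 74.3% of the members, against 56.9% of all genes tested, and 31.4% higher and 42.9% lower against 27.1% and 29.8%. The median level of the members is above that of all genes, and its part in these counts was not tested. A fold of 1.5 or more was found for 7 of the 35 (20.0%), against 26.9% of all genes. The median log2 ratio was -0.09 for the members and -0.07 for all genes. The larger of the 2 levels exceeded the smaller by a median of 1.22-fold for the members and 1.23-fold for all genes.

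Mir380 (chr12:109711803-109711863) had the largest ratio of the 35 members tested, with 511 counts in replicate 1 and 1689 in replicate 2, 113.1 and 282.5 CPM. Its log2 ratio was 1.32 (95% interval 1.18 to 1.47), a 2.50-fold difference. Mir668 (chr12:109734732-109734797) had 2441 and 6404 counts, 540.3 and 1071 CPM, and a log2 ratio of 0.99 (0.92 to 1.05). Mir379 had 13744 and 32784 counts and a log2 ratio of 0.85 (0.82 to 0.88). Mir410 had 395 and 766 counts and a log2 ratio of 0.55 (0.37 to 0.73), and Mir376a had 3816 and 7191 counts and a log2 ratio of 0.51 (0.45 to 0.57). These 5 had the highest ratios of the 35 members tested, and they reach from the first gene of the cluster to the last but 1.

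In the other direction Mir539 (chr12:109728129-109728202) had 568 counts in replicate 1 and 366 in replicate 2, 125.7 and 61.2 CPM, and a log2 ratio of -1.03 (-1.23 to -0.85). Mir679 had 163 and 108 counts and a log2 ratio of -0.98 (-1.36 to -0.64), and Mir377 had 990 and 778 counts and a log2 ratio of -0.75 (-0.89 to -0.62). Mir758 had a ratio of similar size, -0.68, but its interval of -1.63 to 0.11 includes 0 and it did not pass (Fisher's exact test, adjusted p = 0.138). Mir3072, the last gene, had 548 and 513 counts and a log2 ratio of -0.50 (-0.68 to -0.32). None of these 5 genes is among the 10 most abundant members.

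The 4 most abundant members lay below the members' median of 1.22-fold between the libraries, but Mir379, next in level, was 1.80-fold apart. Of the rest of the 10 most abundant, Mir409 (1.40-fold), Mir381 (1.36-fold) and Mir485 (1.32-fold) lay above that median. Mir369 (1.15-fold) and Mir154 (1.16-fold) lay below it. Mir382 had a log2 ratio of -0.09 (-0.11 to -0.07), Mir541 -0.14 (-0.17 to -0.11), Mir487b 0.18 (0.16 to 0.20) and Mir411 0.24 (0.21 to 0.26), all past the threshold. Mir134 was lower at a log2 ratio of -0.12 (-0.21 to -0.02; Fisher's exact test, adjusted p = 0.0225), a call that was lost when the libraries were scaled by TMM or by DESeq2 size factors (exact binomial test, adjusted p = 0.140 and 0.179). Mir666 was at 321.8 and 319.6 CPM, with a log2 ratio of -0.01 (-0.11 to 0.09), and Mir300 at 662.5 and 651.1 CPM, with -0.03 (-0.09 to 0.04). The signs of these last 2, neither past the threshold, turned with either scaling.

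**Figure D3:**
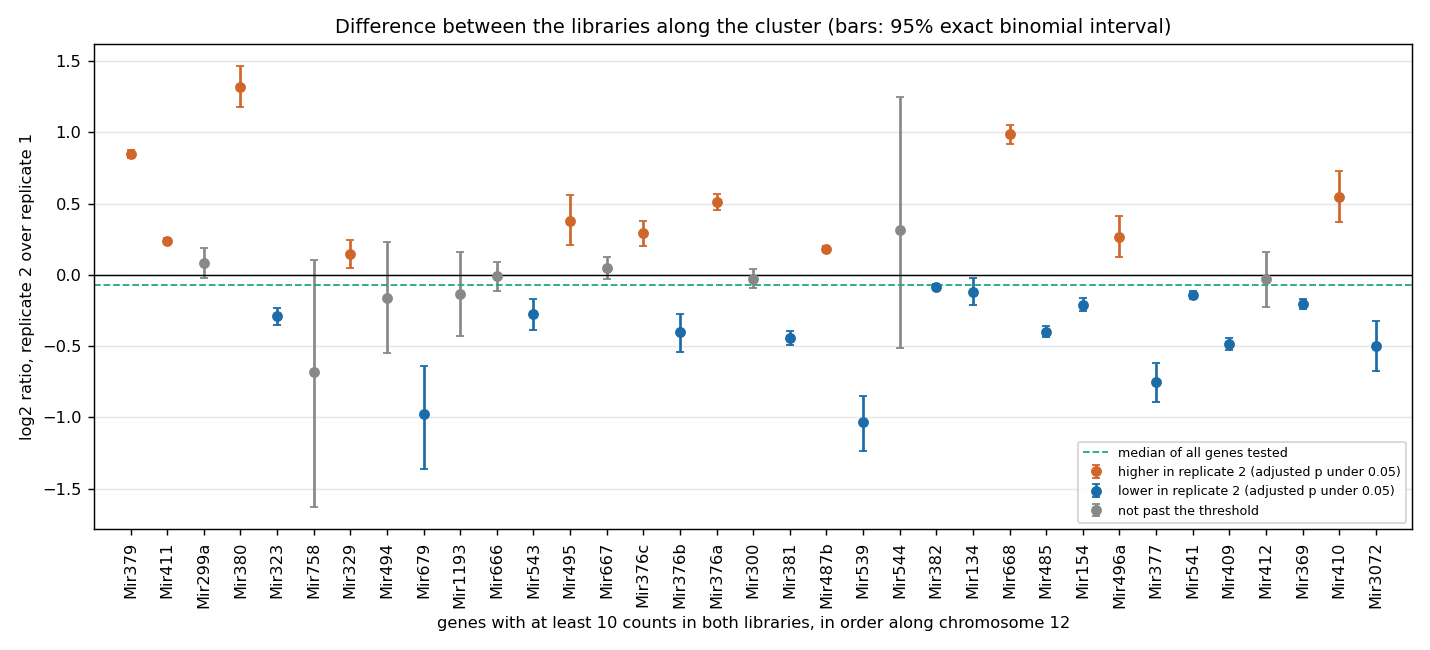
Log2 ratio of replicate 2 over replicate 1 for the 35 members with at least 10 counts in both libraries, in genome order, with 95% exact binomial intervals; orange marks genes higher and blue genes lower in replicate 2 at an adjusted p under 0.05, grey those not past it, and the dashed line is the median of all 420 genes. The ratios reach from -1.03 for Mir539 to 1.32 for Mir380. From Mir382 onward 9 of the 13 genes (69.2%) are lower in replicate 2, against 29.8% of all genes tested. Among the 9 is Mir134, whose call is lost with TMM or DESeq2 size factors.

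By position, the first stretch stood on the higher side, with 3 of 4 genes higher in replicate 2 and Mir299a not past the threshold (log2 ratio 0.09; Fisher's exact test, adjusted p = 0.173). The second stretch had 4 higher and 4 lower of 13, the third 2 higher and 5 lower of 9, and the last 2 higher and 6 lower of 9. Over all genes tested, 27.1% were higher and 29.8% lower. The second stretch, at 30.8% in each direction, lay near these shares, as did the third and the last on the higher side (22.2% each). Stretches of 4 to 13 tested genes carry no test. Mir299a passed as higher with TMM and DESeq2 size factors. Inside Mirg 9 of 13 tested genes were lower and 3 higher, and before it 6 of 22 were lower (27.3%, near the 29.8% of all genes) and 8 higher (36.4%, against 27.1%). Whether these shares differ was not tested. Among 17 pairs of adjacent tested genes that both passed the threshold, 12 differed in opposite directions and 5 in the same. Some of these pairs have an untested gene between them, such as Mir380 and Mir323, unlike the 30 neighbouring pairs above. No such count was made for other genes, so whether 12 of 17 is unusual was not tested. The pairs with Mir134 rest on a call that was lost with TMM or DESeq2 size factors. Mir668 and Mir485 lie 104 bases apart, and the first was 1.98-fold higher and the second 1.32-fold lower in replicate 2.

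Genes that share a seed were then set side by side, with the caution that the counts do not tell which arm was read. Mir379 and Mir411, which share the 3p seed AUGUAAC, held 20.7% of the cluster in replicate 1 and 27.0% in replicate 2, and both were higher in replicate 2, by 1.80-fold and 1.18-fold. Mir379 shares its 5p seed GGUAGAC with Mir1193, which stood far lower and did not pass the threshold (log2 ratio -0.13, interval -0.43 to 0.16). The pairs with the seeds GGUUGAC (Mir758 and Mir1197), GGUUGUC (Mir494 and Mir410) and GGUUGCC (Mir453 and Mir496a) each joined a gene with few or no counts to another: their sums came to 6.20 and 4.68 CPM, 110.5 and 148.7 CPM, and 141.2 and 170.1 CPM. Shared seeds thus joined abundant genes in 1 of these 5 pairs.

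The miR-376 genes, whose primary transcripts are known targets of adenosine-to-inosine editing, differed among themselves. Mir376a had 844.7 and 1203 CPM, Mir376c 379.0 and 464.4 CPM and Mir376b 203.0 and 153.4 CPM. In both libraries the order was Mir376a, Mir376c and Mir376b. Mir376c was higher in replicate 2 (log2 ratio 0.29, interval 0.21 to 0.38) and Mir376b, with 917 counts in each library, was lower (-0.40, interval -0.54 to -0.27). Mir376b and Mir376c are uncertain because of their shared 31 bases, and the treatment of edited reads in mapping is not stated in the labels. Mir300 and Mir381, which share 16 bases of their 3p arms but not the seed, also differed, as Mir381 was 1.36-fold lower in replicate 2 and Mir300 did not pass the threshold.

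Beyond the cluster, 11 of its seeds occur in other mouse miRNAs of the RefSeq table, most of them with few or no counts here. The seed of miR-329-3p is shared with miR-362-3p of chromosome X, and the 2 are shown for comparison.
miR-329-3p: aACACACCcagcuaaccuuuuu
miR-362-3p: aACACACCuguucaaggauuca
Mir362 stood at 24.8 and 26.3 CPM, below Mir329 in both libraries. Mir1983, which shares the seed UCACCUG of miR-412-3p, stood at 715.2 and 748.9 CPM, above Mir412 in both libraries. Mir672, which shares the seed GAGGUUG of miR-377-5p, stood at 452.9 and 572.1 CPM, and Mir370 of the same imprinted region, which shares AGGUCAC with miR-1193-3p, at 1301 and 786.7 CPM.

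The other 22 miRNA genes of the Dlk1-Dio3 region, from the Meg3 side through the Rtl1-antisense genes to Rian, were lower in replicate 2 more often and by more than the members in these counts. Their sum came to 6.27% of counts in replicate 1 and 4.55% in replicate 2 (Wilson 95% limits 6.24 and 6.29, then 4.53 and 4.56), and 14 of the 16 tested were lower and 2 higher in replicate 2, against 29.8% and 27.1% of all genes. With TMM or DESeq2 size factors 13 were lower and 2 higher. Their median log2 ratio was -0.39, against -0.09 for the cluster. The cluster made up 42.7% of the region's miRNA counts in replicate 1 and 52.0% in replicate 2. Mir127, which is the most abundant gene of the region and no member, stood at 36573 and 25349 CPM, and without it the other genes held 2.61% and 2.01%. Whether the sets differ in their ratios was not tested, since genes of a set are not replicates.

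The cluster's summed counts had a log2 ratio of 0.07 (95% interval 0.06 to 0.08), and its size depended on a few genes. Without Mir379, left out after its values were seen, the cluster held 4.37% of both libraries and the log2 ratio was -0.0017 (-0.01 to 0.0068). With Mir379 kept and the 5 members with a copy left out, among them Mir411 and Mir487b, it was 0.0083 (-0.0015 to 0.02). Both other scalings moved every ratio up, TMM by 0.04 and DESeq2 size factors by 0.04, which gave 0.11 with each for the cluster's sum.

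**Figure D4:**
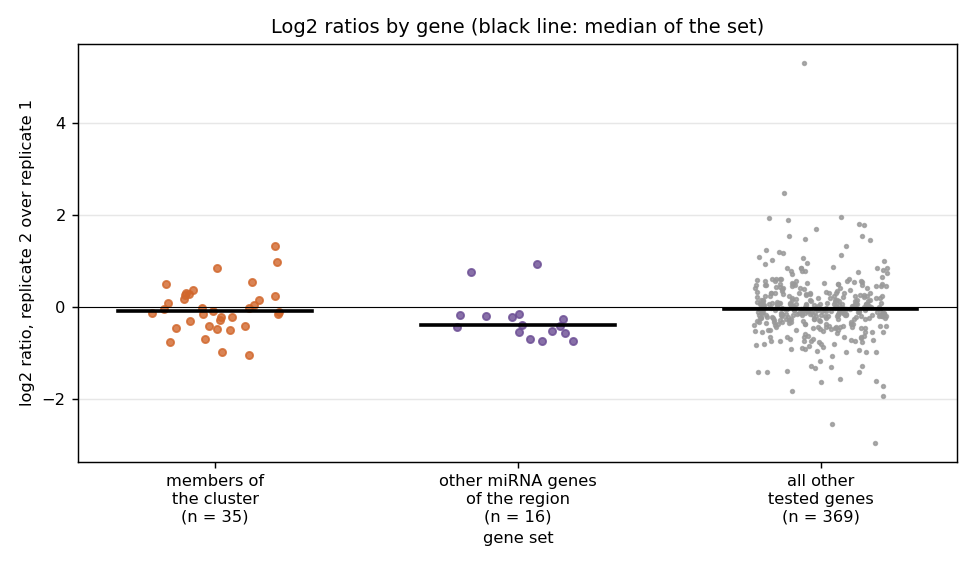
Log2 ratio of replicate 2 over replicate 1 for each gene with at least 10 counts in both libraries, in the cluster (35 genes), among the other miRNA genes of the region (16) and among all other genes tested (369), with a black line at the median of each set. The medians lie at -0.09, -0.39 and -0.05, and the points of the cluster spread on both sides of 0.

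The strand of the reads mattered for 5 members. Mir299a, Mir380, Mir376a, Mir539 and Mir409 are overlapped on the minus strand by another annotated miRNA gene. In the counts made without regard to strand all 5 were at 0 in both libraries, although they held 7.13% and 6.62% of the cluster's sense counts. The antisense counts of all members together came to 0 in replicate 1 and 2 in replicate 2, both below the floor of 3 counts. Mir380, which had the largest ratio of the members tested, is thus seen in the strand-specific counts and lost without them.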

How the data were processed

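Small RNA from hippocampus was counted in 2 libraries. The authors deposited whole-number read counts per miRNA gene on mm10 with GENCODE M21, per the deposited notes. Aligner and adapter trimming: not given in the sources used here. The tables have no header, and the roles of the 3 count columns (both strands, sense, antisense) were inferred from the values. Levels come from the sense column. Its 4 lines that name no gene, 61.3% (replicate 1) and 63.3% (replicate 2) of reads, stayed out of totals and tests. Signal tracks were not analysed here.

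Levels are counts per 1000000 sense counts on miRNA genes (CPM). All 2202 identifiers were found in GENCODE M21, which gave positions, overlaps and, with its sequences, hairpin copies. With 1 group there is no test between groups. Fisher's exact tests (SciPy 1.17.1) compared the libraries over the 420 genes that reached 10 counts in each, after the script was tested on simulated data. edgeR 4.0.16 (TMM) and DESeq2 1.42.0 (size factors) served only as other scalings. Further alternatives were the column for both strands, other count minimums and pseudocounts, a thinned library and the omission of members with a copy. Genes named in full were the 10 most abundant members, the 5 highest and 5 lowest ratios, members sharing a seed, members without counts and members known in neurons. The rule for members uses no measured value, but the window, members and lists were chosen with earlier results of these data known.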

Additional observations from a re-analysis of the deposited data

How the results depend on the processing

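The number of members past the threshold stayed between 22 and 27 over a column without regard to strand, count minimums of 1, 5 and 100, no filter, TMM factors, DESeq2 size factors, a thinned deeper library and the omission of the 5 members with a copy. The value of 22 came from 30 members tested, in the column without regard to strand and with the members with a copy left out. The other settings tested 33 to 36 members. Over all genes 239 passed in the main setting, 236 with TMM and 238 with DESeq2 size factors. For the remaining settings no share over all genes is given. The number 1.5-fold apart stayed between 5 and 8, and 26.9% of all genes were so far apart in the main setting. The share of the cluster, 4.80%, was 3.24% without the members with a copy and 5.48% when the most abundant gene was left out of the total, and it ranged from 4.68% to 4.92% with 1 replicate left out. The share of the 5 most abundant members, 66.1%, was 71.0% in the column without regard to strand, where 5 members have no counts, and ranged from 63.9% to 68.3% with 1 replicate left out. With 1 replicate left out, 35 members had at least 10 counts either way, and no ratio can be formed.

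The log2 ratio of the cluster's sum, 0.07, was -0.0017 without Mir379, 0.0083 without the members with a copy, 0.11 with TMM (0.109) and with DESeq2 size factors (0.115), and 0.09 (0.0883) in the column without regard to strand. All these were chosen after seeing the data. That of the other genes of the region, -0.46, was -0.37 without Mir127, -0.43 with TMM and -0.42 with DESeq2 size factors. Of 205 values of single members under 6 alternatives, 193 kept their direction and side of the threshold. Pseudocounts of 1 CPM and of 5 CPM gave 35 of these values each. They could change neither, since the test uses raw counts and an equal addition keeps the sign. All changes came from the other scalings or from thinning. Mir666 turned to 0.03 with TMM (0.0273), 0.03 with DESeq2 size factors (0.033) and 0.02 with the deeper library thinned (0.0197). Mir300 turned to 0.01 (0.0124) and 0.02 (0.018), and Mir412 to 0.00599 and 0.01 (0.0116), with TMM and DESeq2 size factors. None of these passed the threshold. Mir134 no longer passed with either scaling, Mir299a passed with both and Mir667 passed with DESeq2 size factors. Both scalings raise every ratio by a constant. The depth limits Mir758, Mir544, Mir494 and Mir1193, whose intervals include 0. No paired analysis was possible because there is 1 group.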

Other observations

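Base composition was compared with that of the other genes by median only. The hairpins of the 35 members tested had a median GC content of 43.3%, against 52.9% for the other 385 genes tested, and reached from 29.1% in Mir376c to 72.3% in Mir3072 over all members. Across these genes the Spearman correlation of the log2 ratio between libraries with GC content was -0.15 for the members and -0.16 for the other genes. These are descriptions over genes that share their libraries, and correlations of this size in counts are no finding.

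The mature arms of the cluster started with U in 30 and with A in 27 of 71 sequences, 80.3% together, against 65.9% of the other mouse mature sequences in the RefSeq table. Mature lengths ran from 19 to 25 bases.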
